A study of Mus musculus with 35 samples.

Results

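AP-1 is a transcription factor made of paired leucine zipper proteins of the Fos, Jun, ATF and BATF groups. The genes examined were Fos, Fosb, Fosl1, Fosl2, Jun, Junb, Jund, Atf3 and Batf, chosen by symbol. All 9 were on the array, with 13 of the 34945 probe sets that carry 1 gene symbol, and they are 9 of the 18193 genes measured. Each gene was followed through the probe set with the highest mean over all arrays.

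Total RNA was measured on 35 Affymetrix Mouse430_2 arrays of cells sorted by flow cytometry from male C57BL/6J mice, 8 weeks old and of no labelled treatment. From bone marrow came SatM (an atypical monocyte that the labels link to fibrosis, 2 arrays), inflammatory monocytes (2 arrays), SMP (labelled as the progenitor of SatM, 4 arrays), cMoP (the common monocyte progenitor, 4 arrays), and GMP and MDP, earlier progenitors with 1 array each. Of the SMP and cMoP arrays, 2 each carry WT in their titles, with no other genotype in the labels, and are called the WT-titled set here, against the numbered set. Basophils, eosinophils and neutrophils came from spleen, with 2 arrays each. A tissue panel of 15 arrays held M2-like resident macrophages (spleen and bone marrow, 2 arrays), lung macrophages (2 arrays, with different sort names in their titles but 1 cell type label), SatM (spleen, bone marrow, blood and lung, 4 arrays), Msr1-negative Ceacam1-negative cells, here marker-negative cells (3 arrays, from bone marrow, spleen and blood), other Ly6C-negative cells (2 arrays, from spleen and blood) and Msr1-dull Ceacam1-dull cells (bone marrow and lung, 2 arrays). The labels do not say whether arrays of a group came from separate mice or pools, so the p-values measure the spread between arrays, which may be technical.

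Fos and Jun proteins pair through their leucine zippers and bind the AP-1 site, a short palindrome, while ATF proteins prefer the related cyclic AMP response element. Fos, Fosb, Jun, Junb and Atf3 are immediate-early genes, transcribed within minutes of a stimulus through MAP kinases and the serum response factor SRF. Fos and Fosb carry a strong transactivation domain, which Fosl1 (Fra-1) and Fosl2 (Fra-2) lack. Junb and Jund are often weaker activators than Jun, and Batf, which has a zipper but no activation domain of its own, binds with a Jun protein and with Irf4 or Irf8. In myeloid cells AP-1 acts on cytokine, chemokine and protease genes, and Atf3 is known in macrophages as a repressor of Il6 and other cytokine genes. Handling and dissociation of cells are known to induce immediate-early genes too.

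The promoters of 4 of these genes are printed because Fosb, Jun and Junb rose together in SMP relative to cMoP while Atf3 fell there. Each window runs from 250 bases before a start site to 50 after it, 5′ to 3′ on the gene's strand, from RefSeq (GRCm38.p6), and 8 of the 9 genes had a window. For Fosb the start site used lies inside the gene, downstream of its annotated 5′ end. Capitals mark the short cyclic AMP response element core TGACG, or its reverse complement, and the full-length variant TGACNTCA, both searched on both strands. They overlap where N is G.
Fosb: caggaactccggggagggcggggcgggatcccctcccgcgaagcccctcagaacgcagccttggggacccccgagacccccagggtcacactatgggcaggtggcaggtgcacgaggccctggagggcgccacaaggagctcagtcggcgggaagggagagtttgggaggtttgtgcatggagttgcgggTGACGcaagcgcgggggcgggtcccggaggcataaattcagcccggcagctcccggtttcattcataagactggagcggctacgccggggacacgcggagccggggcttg
Jun: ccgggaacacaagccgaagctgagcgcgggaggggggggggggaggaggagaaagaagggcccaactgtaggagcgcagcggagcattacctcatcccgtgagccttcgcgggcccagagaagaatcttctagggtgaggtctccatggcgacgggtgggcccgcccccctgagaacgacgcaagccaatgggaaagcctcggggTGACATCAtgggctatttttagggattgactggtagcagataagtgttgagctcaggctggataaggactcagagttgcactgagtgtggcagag
Junb: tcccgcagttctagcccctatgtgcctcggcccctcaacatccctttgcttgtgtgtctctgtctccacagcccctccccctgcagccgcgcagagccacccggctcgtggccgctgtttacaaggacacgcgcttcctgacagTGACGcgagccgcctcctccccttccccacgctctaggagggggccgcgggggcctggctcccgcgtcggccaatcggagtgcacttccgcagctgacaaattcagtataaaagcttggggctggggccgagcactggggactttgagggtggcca
Atf3: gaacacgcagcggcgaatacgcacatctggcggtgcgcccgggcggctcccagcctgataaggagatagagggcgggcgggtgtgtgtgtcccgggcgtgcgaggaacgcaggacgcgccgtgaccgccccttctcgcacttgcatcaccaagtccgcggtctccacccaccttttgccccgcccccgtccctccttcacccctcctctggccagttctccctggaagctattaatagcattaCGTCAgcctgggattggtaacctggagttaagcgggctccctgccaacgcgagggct
The windows lie on the minus strand at chr7:19309996-19310295 (Fosb), chr4:95052173-95052472 (Jun), chr8:84978699-84978998 (Junb) and chr1:191183284-191183583 (Atf3). With the start site of each window at 0, TGACG began at -60 in Fosb and at -106 in Junb, and its reverse complement began at -7 in Atf3. The match in Jun was TGACATCA, from -45 to -38. Fos held TGACG at -129 and -66, and Batf at -98. The windows of Fosl2 and of Jund, which also rose in SMP relative to cMoP, held neither TGACG nor TGACNTCA on either strand. Of 32851 mouse promoter windows of this length, 20.8% held TGACG and 8.83% held TGACNTCA. The AP-1 site TGANTCA was in none of the 8 windows and in 7.81% of all windows. TATAAA was in the windows of Fos (-33) and Junb (0) and in 13.6% of all windows. These matches describe letters and not binding.

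The deposited values are on a log2 scale, and every array had the same lowest value, 2.30, here called the floor, where 46.5% to 49.5% of its probe sets lay. Replicate arrays correlated across probe sets at r = 0.927 to 0.997 outside the panel, and at 0.868 to 0.981 within it, where the arrays of every group but the lung macrophages differ in tissue. The 6 measured basophil markers averaged 13.04 to 13.71 on the SMP arrays and 13.7 to 13.9 on the basophil arrays, against 3.20 to 3.55 on the cMoP arrays, so SMP carried basophil markers at nearly the level of basophils. Progenitor markers averaged 6.55 to 7.01 in SMP, against 9.19 to 10.51 in cMoP. The marker-negative cells, labelled monocytes, had NK cell markers at 10.54 to 11.65 (SatM of the panel 3.47 to 5.07) and classical monocyte markers at only 4.16 to 5.52. SatM of the panel had classical monocyte markers at 9.76 to 11.4, against 6.69 to 6.94 in the numbered SatM, so the 2 sets of SatM arrays stand apart. Neutrophil markers reached 10.7 to 11.4 on the basophil arrays and 9.28 to 9.85 on the SatM arrays. In sorted bulk cells, fewer cells of a type and less RNA per cell cannot be told apart.

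**Figure D1:**
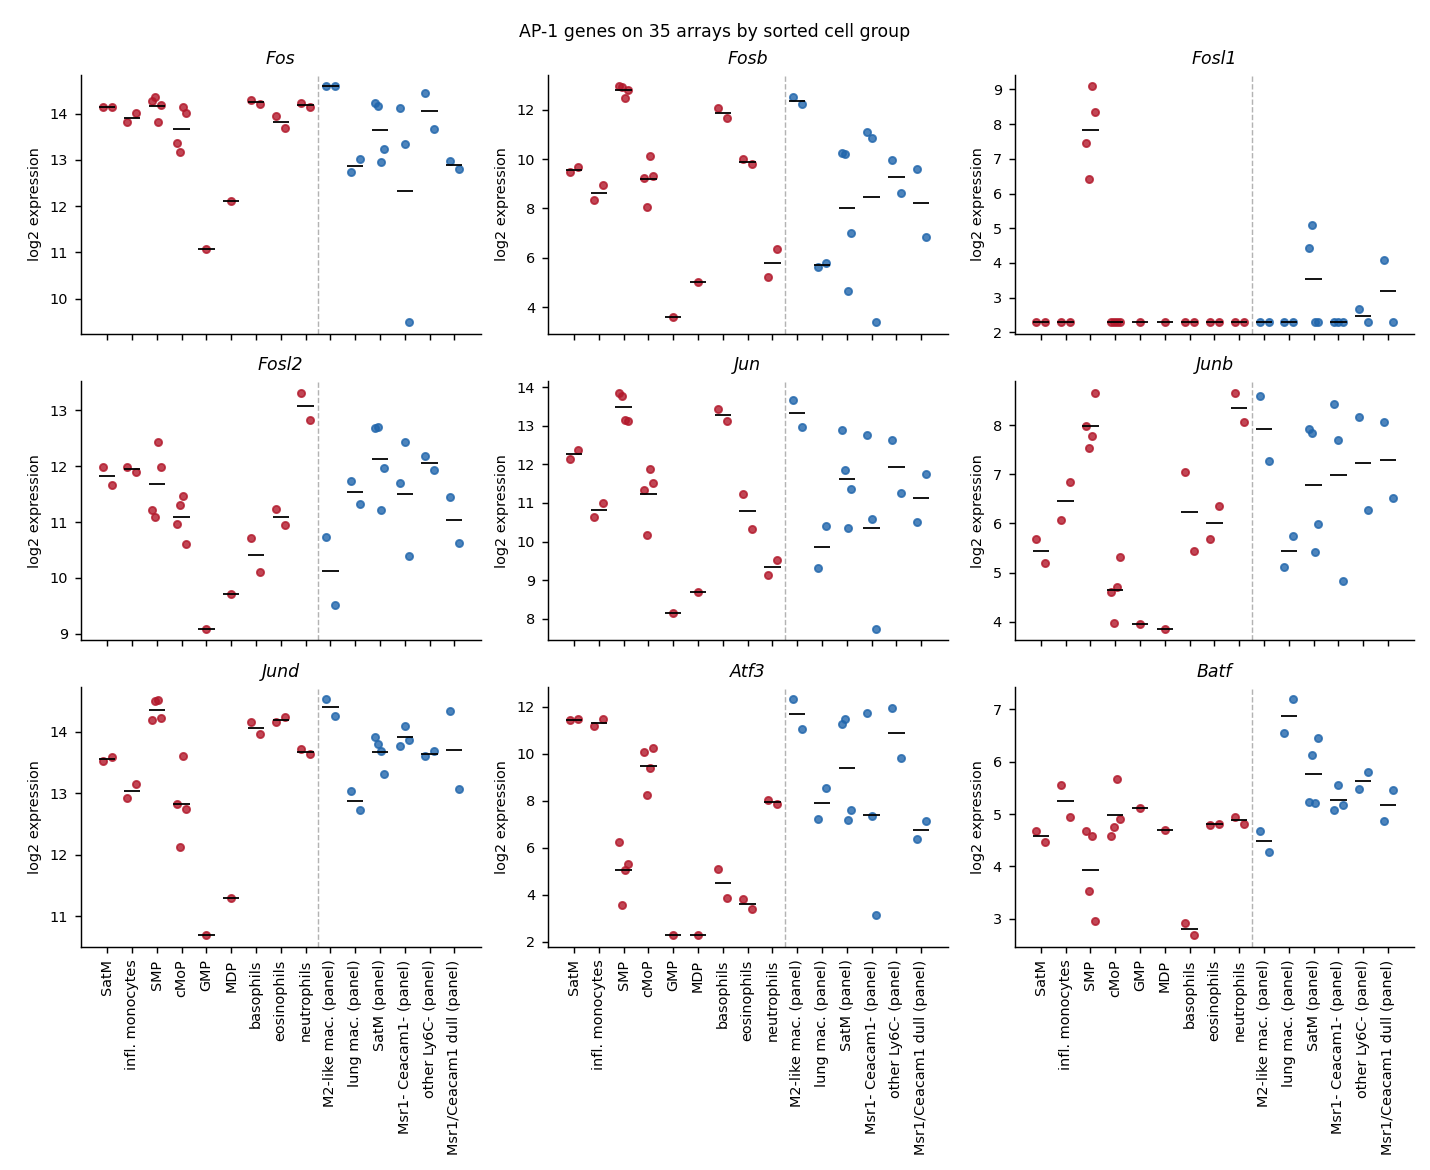
Log2 expression (vertical axes, each with its own range) of the 9 AP-1 genes on 35 arrays. Points are arrays, lines are group means, red groups are the 20 arrays outside the panel and blue groups the 15 panel arrays. Fosl1 stands above the floor in SMP (6.43 to 9.09), and GMP and MDP are the lowest groups for Fos, Fosl2, Jun and Jund.

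Across the groups, Fos and Jund were high nearly throughout and Fosl1 was at the floor nearly throughout. Fos, the founding member, ran from 9.50 to 14.6 with a median of 14.0, and 12 of the 15 group means lay between 12.87 and 14.59. In that order only the M2-like macrophages at the top (14.59 and 14.59) and GMP at the bottom (11.1, 1 array) were apart from their neighbours, and MDP (12.1, 1 array) lay inside the range of the marker-negative cells. Jund ran from 10.7 in GMP to 14.5 and had a median of 13.7. Its means ran from 14.39 ± 0.19 (SD, n = 2) in M2-like macrophages and 14.35 ± 0.17 (SD, n = 4) in SMP down to 12.83 ± 0.60 (SD, n = 4) in cMoP, 11.3 in MDP and 10.7 in GMP. The second Jund probe set was at the floor on 31 arrays and did not follow the first (r = 0.168 over 35 arrays).

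Fosb, which encodes a Fos protein with the same partners as Fos, and Jun, the main partner of the Fos proteins, had their highest means in the same groups. Fosb averaged 12.77 ± 0.22 (SD, n = 4) in SMP, 12.36 ± 0.19 (SD, n = 2) in M2-like macrophages and 11.85 ± 0.28 (SD, n = 2) in basophils. It averaged 5.80 ± 0.80 (SD, n = 2) in neutrophils and 5.73 ± 0.12 (SD, n = 2) in lung macrophages, and measured 5.02 in MDP and 3.60 in GMP. Jun had these 3 groups at the top too, at 13.47 ± 0.39 in SMP (SD, n = 4), 13.33 ± 0.49 in M2-like macrophages and 13.28 ± 0.24 in basophils (SD, n = 2 each), whose arrays overlapped. Jun was lowest in neutrophils (9.34 ± 0.28, SD, n = 2), MDP (8.70) and GMP (8.16). Over the 35 arrays Fosb and Jun correlated at r = 0.898, the highest of the 36 member pairs, and Fosb and Batf at r = -0.519, the lowest. These arrays share cell types and array sets, so r describes them only.

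Fosl1, the gene of Fra-1, was above the floor on 8 of 35 arrays. All 4 SMP arrays were among them, at 7.47 and 6.43 in the numbered set and 9.09 and 8.36 in the WT-titled set. The others were the panel SatM of bone marrow (5.09) and spleen (4.44), the Msr1-dull Ceacam1-dull cells of bone marrow (4.08) and the other Ly6C-negative cells of spleen (2.68). Basophil markers averaged 5.31 on that marrow SatM array and 6.13 on the marrow Msr1-dull Ceacam1-dull array, but 2.503 on both spleen arrays. On the 2 basophil arrays, whose basophil markers were at 13.7 and 13.9, Fosl1 was at the floor.

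Fosl2, the gene of Fra-2, led in neutrophils at 13.07 ± 0.34 (SD, n = 2), apart from the next group, the panel SatM at 12.14 ± 0.70 (SD, n = 4). It was lowest in M2-like macrophages (10.13 ± 0.87, SD, n = 2), MDP (9.71) and GMP (9.10). Junb also led in neutrophils, at 8.36 ± 0.43 (SD, n = 2), with SMP (8.00 ± 0.48, SD, n = 4) and M2-like macrophages (7.93 ± 0.94, SD, n = 2) overlapping it. Junb was lowest in cMoP (4.65 ± 0.55, SD, n = 4), GMP (3.96) and MDP (3.86). The second Fosl2 probe set correlated with the first at r = 0.553, and those of Jun and Fosl1 did so at 0.926 and 0.876.

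Atf3, a stress-induced repressor, had its highest means in M2-like macrophages and the marrow monocytes. It averaged 11.68 ± 0.90 in M2-like macrophages, 11.45 ± 0.05 in SatM and 11.33 ± 0.20 in inflammatory monocytes (SD, n = 2 each). The panel SatM (9.38 ± 2.32, SD, n = 4, from 7.16 to 11.49) overlapped the neutrophils (7.95 ± 0.13, SD, n = 2). Atf3 averaged 5.04 ± 1.11 in SMP (SD, n = 4), 4.49 ± 0.86 in basophils and 3.61 ± 0.31 in eosinophils (SD, n = 2 each), and was at the floor in GMP and MDP. Batf, the partner of Irf4 and Irf8, was low everywhere, from 2.69 to 7.19. Lung macrophages had most (6.87 ± 0.45, SD, n = 2) and stood apart from the panel SatM (5.76 ± 0.63, SD, n = 4), while basophils had least (2.81 ± 0.17, SD, n = 2). The highest panel SatM array, that of lung, was at 6.45, near the lower lung macrophage array (6.55).

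SMP were set against cMoP to compare the progenitor named for SatM with the common monocyte progenitor. Fosb, Fosl1, Jun, Junb and Jund were higher in SMP, and Atf3 and Batf were lower. Calls needed a log2 difference of at least 1 and a p under 0.05 after Benjamini-Hochberg adjustment in limma over 12077 genes. Of the 9 members 7 were called, 5 higher and 2 lower, where 35.5% of all genes tested were called, 12.8% higher and 22.7% lower. The median log2 difference was 1.52 over the members and -0.09 over all genes tested.

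Fosb measured 12.94, 12.91, 12.45 and 12.79 on the SMP arrays and 9.24, 8.07, 10.14 and 9.32 on the cMoP arrays. No cMoP array reached an SMP array, and the log2 difference was 3.58 ± 0.36 (SE, limma adjusted p = 4.84e-06). Junb measured 7.99, 7.54, 7.79 and 8.66 in SMP and 4.61, 3.98, 4.70 and 5.32 in cMoP, a difference of 3.34 ± 0.39 (SE, limma adjusted p = 1.75e-05). Its groups did not overlap either.

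Jun measured 13.85, 13.77, 13.14 and 13.13 in SMP and 11.34, 10.17, 11.87 and 11.52 in cMoP (2.25 ± 0.34, SE, limma adjusted p = 0.000148). Its second probe set rose too, by 3.11 ± 0.43 (SE). Jund measured 14.19, 14.49, 14.51 and 14.22 in SMP and 12.83, 12.13, 13.60 and 12.75 in cMoP (1.53 ± 0.21, SE, limma adjusted p = 6.97e-05). For both genes every SMP array was above every cMoP array. The second Jund probe set, mostly at the floor, differed by 0.14 and was not called, and with the mean of both probe sets the difference of Jund was 0.83, under the limit of 1 for a call. Fosl1, at the floor on all 4 cMoP arrays, was at least 46.5-fold higher in SMP as a ratio of mean levels on the log2 scale (limma adjusted p = 3.71e-08). Outside the panel it was above the floor in SMP alone, and it passed the filter for testing through those arrays. Groups at the floor add no spread, so its limma p-values rest on less spread than the SMP arrays show. The second Fosl1 probe set, at the floor on 31 arrays, differed by 1.77 ± 0.37 (SE) and was called (limma adjusted p = 0.00197). The size of the Fosl1 difference thus depended on the probe set.

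Atf3 went the other way, with 6.23, 3.57, 5.05 and 5.31 in SMP and 10.06, 8.25, 9.41 and 10.26 in cMoP. The groups were apart and the difference was -4.46 ± 0.53 (SE, limma adjusted p = 2.37e-05). Batf measured 4.68, 3.52, 4.58 and 2.95 in SMP and 4.57, 4.76, 5.66 and 4.91 in cMoP, so the groups overlapped, and its difference of -1.04 ± 0.38 (SE) was called at a limma adjusted p of 0.0379. That call was lost when any of 5 single arrays was left out: numbered cMoP array 2 (-1.10), numbered SMP array 2 (-0.91), WT-titled cMoP array 1 (-0.80), WT-titled cMoP array 2 (-1.10) or WT-titled SMP array 2 (-0.62). Fos (0.49, adjusted p = 0.0524) and Fosl2 (0.59, adjusted p = 0.0856) were not called by limma.

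**Figure D2:**
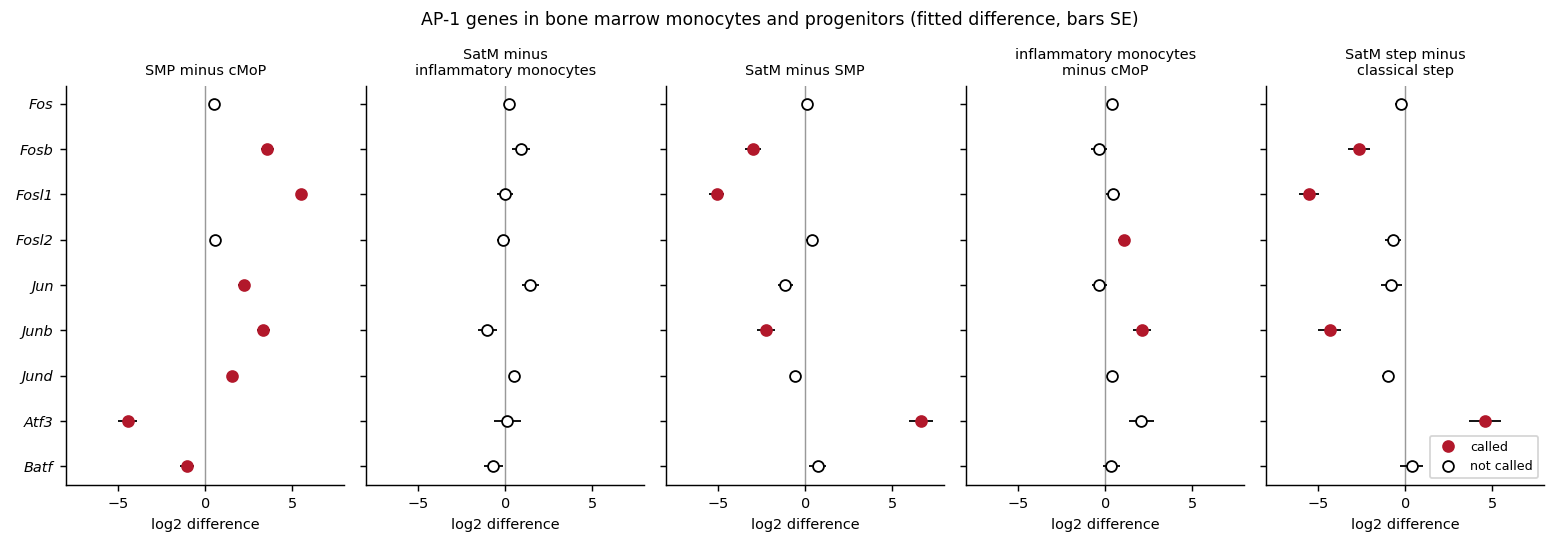
Fitted log2 difference (horizontal axes, bars SE) of each AP-1 gene in 5 bone marrow comparisons. Red points were called and open points were not. SMP minus cMoP has 5 red points above 0 and Atf3 and Batf below it, and SatM minus inflammatory monocytes has none. Fosl1 points are set against groups at the floor. In inflammatory monocytes minus cMoP both groups were at the floor on every array, so the fitted Fosl1 value of 0.44 comes from the WT-titled term.

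Within each array set the comparison was repeated, a setting chosen after the values were seen. In the numbered set 4 members were called, where 17.0% of all genes tested were, and in the WT-titled set 2 were, where 6.14% were. Fosb was higher in SMP by 2.89 in the WT-titled set (adjusted p = 0.0607) and Junb by 3.22 (adjusted p = 0.0774), neither of them called by limma. Jun differed by 3.06 in the numbered set (adjusted p = 0.0504) and by 1.44 in the WT-titled set (adjusted p = 0.0645). Jund differed by 1.86 in the numbered set (adjusted p = 0.058) and by 1.19 in the WT-titled set (adjusted p = 0.208), so it was called in neither. Batf was called in neither set (-0.56 in the numbered and -1.52 in the WT-titled set). Atf3 differed by -4.26 in the numbered set (adjusted p = 0.15). All 7 members kept their direction in both sets. Fos was called in the numbered set alone (1.06, limma adjusted p = 0.0359). It measured 14.28 and 14.37 in numbered SMP and 13.35 and 13.17 in numbered cMoP, but 13.83 and 14.19 in WT-titled SMP and 14.15 and 14.02 in WT-titled cMoP.

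**Figure D3:**
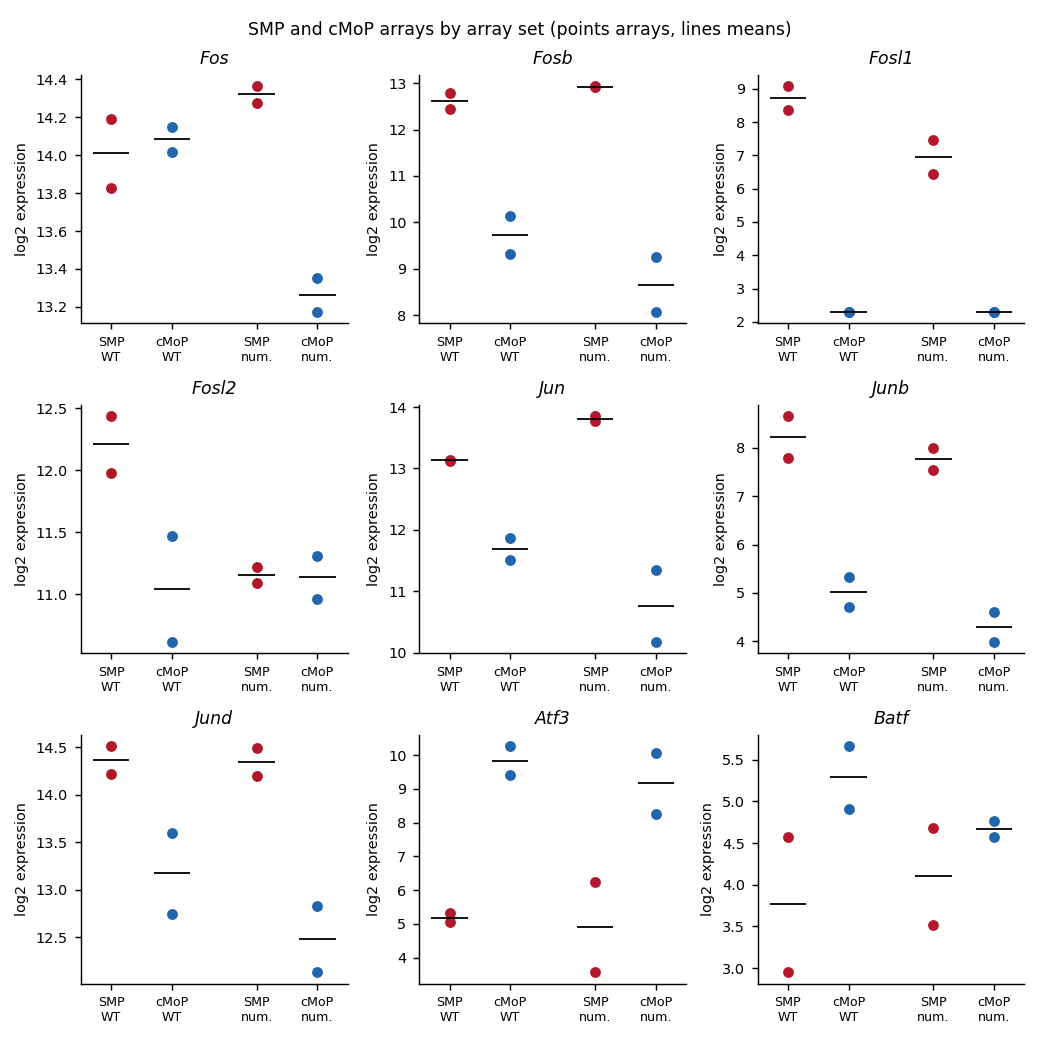
Log2 expression (vertical axes) of the 9 AP-1 genes in SMP (red) and cMoP (blue), split into the WT-titled and numbered (num.) sets, with 2 arrays each and lines for the means. Fos differs between SMP and cMoP in the numbered set, while in the WT-titled set its arrays overlap.

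The difference between the sets in this contrast was tested as an interaction. It was called for Fos alone among the 9 members (-1.13 ± 0.21, SE, limma adjusted p = 0.0215), where 1.75% of all genes tested were called, 0.696% lower. The call was lost without numbered cMoP array 2 (-1.04) or WT-titled SMP array 1 (-0.95). That SMP array carried neutrophil markers at 9.84, against 6.74 to 7.23 on the other SMP arrays. The part of that signal in the Fos result was not tested. Fosl1, at the floor on all cMoP arrays, was not called (limma adjusted p = 0.0582), but was called without numbered SMP array 1 or WT-titled SMP array 2, so this compares its level in the SMP arrays of the 2 sets alone. Jun (-1.62, limma adjusted p = 0.164) was called without numbered cMoP array 1 (-2.20). Between the sets themselves, WT-titled minus numbered, 0 of 9 members were called by limma, with none at an unadjusted p under 0.05 except Fosl1, where 12.4% of all genes tested were called.

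The lists that follow are read against the 12.8% of all genes tested that were higher in SMP than in cMoP and the 22.7% that were lower. Of 22 other immediate-early genes tested, 13 were higher in SMP and 3 lower, with a median of 1.30. The stress gene Ier3 was at 13.64 in SMP and 7.58 in cMoP (6.07, limma adjusted p = 3.58e-06) and the zinc finger gene Egr2 at 13.21 and 7.27 (5.94, limma adjusted p = 2.67e-05). Egr3 rose by 4.92, with overlapping arrays, and Klf4, a monocyte regulator, fell by 4.997. The mean of the 22 genes was 10.05 and 9.11 on numbered SMP arrays and 8.36 and 6.80 on numbered cMoP arrays. It was 10.10 and 10.20 on WT-titled SMP arrays and 9.69 and 9.66 on WT-titled cMoP arrays. Between the sets, 7 of the 22 were higher and 1 lower in the WT-titled set, among them Egr3 (3.98), Nr4a1 (3.26) and Egr2 (2.87). The part of cell handling or of the basophil markers in the members' differences was not tested.

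Among genes known as AP-1 targets, 8 of 18 tested were higher in SMP and 5 lower. The cytokine gene Il6 measured 12.69 in SMP and 4.72 in cMoP (7.97, limma adjusted p = 7.81e-07). Il4, at the floor in cMoP, was at least 189-fold higher in SMP. The chemokine gene Ccl4 rose by 6.50 and Ccl2 fell by 4.23. Of 15 other leucine zipper partners, Mafk (2.58) and Mafg (1.10) rose and Bach2 (-3.43) and Bach1 (-1.16) fell, and 11 were not called. The arrays of SMP and cMoP overlapped for Mafg and Bach2. Irf8 and Irf4, the interferon regulatory factors that bind DNA with Batf, fell by 7.71 and 3.93, and the arrays overlapped for Irf4.

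Upstream of AP-1, 2 of 14 MAP kinase genes tested rose and 5 fell. Map2k6 (-3.35), Map3k8 (-3.30) and Mapk8, the gene of the Jun kinase JNK1 (-2.72), were among those lower in SMP, and Map2k4, an activator of JNK, was higher (1.78). Of 6 regulators of immediate-early transcription 3 rose, the SRF partners Mrtfa (1.62), Elk3 (1.27) and Elk4 (1.11).

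The comparison of SatM with SMP concerns the step from the named progenitor to the mature cell. Fosb, Fosl1 and Junb were lower in SatM and Atf3 was higher, so the 4 genes had the opposite sign from SMP minus cMoP, which shares the SMP arrays. These 4 of 9 members were called, 1 higher and 3 lower, where 26.8% of all genes tested were called, 12.8% higher and 14.0% lower. Atf3 measured 11.42 and 11.49 in SatM, against 3.57 to 6.23 in SMP, a fitted difference of 6.65 ± 0.71 (SE, limma adjusted p = 1.12e-05). Fosb measured 9.46 and 9.67 in SatM, against 12.45 to 12.94 in SMP (-3.02 ± 0.47, SE, limma adjusted p = 0.000319). Both genes had no overlap between the groups.

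Fosl1 was at the floor on both SatM arrays and at least 46.5-fold lower than in SMP as a ratio of mean levels on the log2 scale. Its fitted difference, with the WT-titled term, was -5.09 (limma adjusted p = 1.30e-06). Its second probe set differed by -1.40 and was not called (limma adjusted p = 0.0513). Junb measured 5.68 and 5.20 in SatM, against 7.54 to 8.66 in SMP (-2.26 ± 0.51, SE, limma adjusted p = 0.00442). With the panel's bone marrow SatM array added, where Junb was at 7.83, its difference was -1.47 and no longer called by limma (adjusted p = 0.108). That array also carried Fosl1 at 5.09 and Batf at 6.13, against 4.47 and 4.68 on the numbered SatM arrays. Neutrophil markers averaged 11.26 on it, against 9.28 and 9.85 on the numbered SatM arrays, and their part in these values was not tested. Jun measured 12.15 and 12.37 in SatM, below all SMP arrays (13.13 to 13.85), but its fitted difference of -1.15 was not called by limma (adjusted p = 0.0733). It was called in 4 of the other settings. The second Jun probe set, with every probe set tested by itself, differed by -1.78 and was called (limma adjusted p = 0.0342).

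Inflammatory monocytes minus cMoP is the matching step of the classical lineage, and there 2 of 9 members were called, both higher, where 14.9% of all genes tested were called, 6.62% higher. Junb measured 6.07 and 6.85 in inflammatory monocytes, against 3.98 to 5.32 in cMoP (2.10 ± 0.51, SE, limma adjusted p = 0.0126). Its call was lost without inflammatory monocyte array 2 (1.71) or numbered cMoP array 2 (1.87). Fosl2 measured 11.99 and 11.89, against 10.61 to 11.47 in cMoP. Its difference of 1.09 ± 0.35 (SE) lay at the limit of the call (limma adjusted p = 0.0495) and was lost without either inflammatory monocyte array (1.05 and 1.14), numbered cMoP array 1 (1.16), WT-titled cMoP array 1 (1.12) or WT-titled cMoP array 2 (0.95). The group means of Fosl2 differed by only 0.85, since the fitted 1.09 includes the WT-titled term. With no such term it was not called (0.85, limma adjusted p = 0.128). The second Fosl2 probe set differed by 0.23 and was not called (limma adjusted p = 0.933). Atf3 measured 11.19 and 11.46, above all cMoP arrays (8.25 to 10.26), and was not called by limma (2.07, adjusted p = 0.0657). It was called without numbered cMoP array 1 (2.55).

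The 2 steps were compared directly, as SatM minus SMP less inflammatory monocytes minus cMoP. Of 9 members 4 were called, where 22.3% of all genes tested were called, 11.1% higher and 11.1% lower. Junb differed by -4.36 ± 0.67 (SE, limma adjusted p = 0.000453), being lower in SatM than in SMP but higher in inflammatory monocytes than in cMoP. Fosb differed by -2.66 ± 0.62 (SE, limma adjusted p = 0.00778), and Atf3 by 4.58 ± 0.93 (SE, limma adjusted p = 0.0031). Fosl1 was the other called member, but it was at the floor in SatM, inflammatory monocytes and cMoP, so its value only repeats SMP minus cMoP. The call of Fosb was lost without inflammatory monocyte array 2 (-2.36). Jund (-1.01, limma adjusted p = 0.0638) was called without WT-titled cMoP array 1 (-1.24) or WT-titled SMP array 2 (-1.13).

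Set against each other, the mature monocytes of the marrow showed no called member. Between SatM and inflammatory monocytes, 0 of 9 members were called by limma, where 9.34% of all genes tested were, and 1 member, Jun, had an unadjusted p under 0.05. Jun measured 12.15 and 12.37 in SatM and 10.63 and 11.01 in inflammatory monocytes. The arrays were apart, and the difference of 1.44 ± 0.48 (SE) had an adjusted p of 0.0787, or 0.0486 with these groups fitted alone. Junb leaned the other way, with 5.68 and 5.20 in SatM and 6.07 and 6.85 in inflammatory monocytes (-1.02 ± 0.55, SE, limma adjusted p = 0.302). Fosb was at 9.46 and 9.67 in SatM and 8.34 and 8.94 in inflammatory monocytes (0.92, limma adjusted p = 0.315).

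Outside the family, Mmp9, a matrix protease gene and AP-1 target, was higher in SatM than in inflammatory monocytes (5.06), as was Il1b (3.77), and Ccl2 was lower (-3.27). Of 22 other immediate-early genes only Dusp2 (3.21) and Klf2 (2.09) were called, both higher in SatM. Batf3, a close relative of Batf, was lower (-3.18).

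Among the spleen granulocytes, basophils and eosinophils had more Fosb and Jun than neutrophils, and less Fosl2, Junb and Atf3. Between basophils and neutrophils, 6 of 9 members were called, 2 higher and 4 lower, where 37.4% of all genes tested were called, 21.9% higher and 15.6% lower. Fosb measured 12.05 and 11.66 in basophils and 5.24 and 6.37 in neutrophils, the largest difference of any member in the 15 comparisons after that of Atf3 between SatM and SMP (6.05 ± 0.51, SE, limma adjusted p = 1.17e-06). Jun measured 13.44 and 13.11 in basophils and 9.15 and 9.54 in neutrophils (3.94 ± 0.48, SE, limma adjusted p = 2.88e-05). The arrays of the groups were far apart for both.

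Fosl2 measured 10.71 and 10.10 in basophils and 13.31 and 12.83 in neutrophils (-2.67 ± 0.37, SE, limma adjusted p = 9.36e-05). Atf3 (-3.45, adjusted p = 0.00256) and Batf (-2.08, adjusted p = 0.00715) fell too by limma. Junb measured 7.05 and 5.43 in basophils and 8.66 and 8.06 in neutrophils (-2.12, limma adjusted p = 0.00725), and its call was lost without basophil array 2 (-1.31) or neutrophil array 1 (-1.82). Basophil array 1, with the higher Junb, also had more neutrophil marker signal than basophil array 2 (11.4, against 10.7), and the part of that signal was not tested.

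Between eosinophils and neutrophils, 5 of 9 members were called, 2 higher and 3 lower, where 40.5% of all genes tested were called, 23.1% higher and 17.4% lower. Fosb measured 10.01 and 9.78 in eosinophils, against 5.24 and 6.37 in neutrophils (4.09 ± 0.51, SE, limma adjusted p = 3.36e-05). Atf3 was nearly absent from eosinophils, at 3.83 and 3.39, against 8.04 and 7.86 in neutrophils (-4.34 ± 0.76, SE, limma adjusted p = 0.000498). Fosl2 fell by 1.98 and Junb by 2.34. Jun measured 11.23 and 10.34 in eosinophils and 9.15 and 9.54 in neutrophils (1.45, limma adjusted p = 0.0255), a call lost without eosinophil array 1 (0.998) or either neutrophil array (1.25 and 1.64).

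Between basophils and eosinophils, 3 of 9 members were called, 2 higher and 1 lower, where 20.6% of all genes tested were called, 11.3% higher and 9.36% lower. Jun was higher in basophils by 2.49 ± 0.48 (SE, limma adjusted p = 0.00229) and Fosb by 1.96 ± 0.51 (SE, limma adjusted p = 0.0139). Batf measured 2.92 and 2.69 in basophils and 4.79 and 4.82 in eosinophils (-1.998 ± 0.53, SE, limma adjusted p = 0.0164). The call of Fosb was lost without basophil array 1 (1.76) or eosinophil array 2 (1.85). That of Batf was lost without any 1 of the 4 arrays (-2.12 to -1.88).

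**Figure D4:**
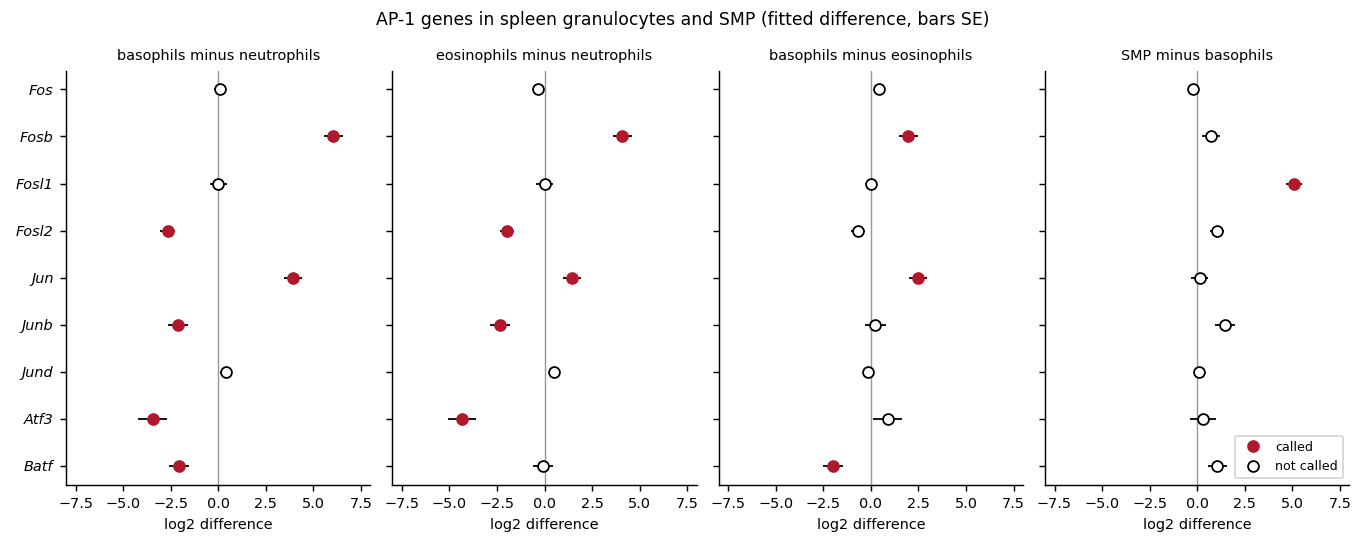
Fitted log2 difference (horizontal axes, bars SE) of each AP-1 gene between spleen granulocytes and between SMP and basophils. Red points were called and open points were not. Fosb and Jun lie above 0 and Fosl2, Junb and Atf3 below 0 in both comparisons with neutrophils, and Fosl1 alone is red between SMP and basophils.

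SMP and basophils, which share high basophil markers, differed in 1 of 9 members, where 2.85% of all genes tested were called, 0.753% higher in SMP. That member was Fosl1, at 6.43 to 9.09 in SMP and at the floor on both basophil arrays. It was at least 46.5-fold higher in SMP as a ratio of mean levels on the log2 scale. Its fitted difference was 5.09 (limma adjusted p = 7.66e-05), and it passed the filter through the SMP arrays alone. With these groups fitted alone the difference was 4.65 and not called by limma (adjusted p = 0.166). Its second probe set differed by 1.40 and was not called (limma adjusted p = 0.1635). Junb (1.46, adjusted p = 0.148) and Fosl2 (1.04, adjusted p = 0.134) were not called by limma. These arrays differ in tissue as well, bone marrow for SMP and spleen for basophils, and tissue and cell type cannot be told apart here. Among the AP-1 targets Il4 was higher (1.28) and Mmp9 lower (-3.43) in SMP than in basophils.

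In the tissue panel, Fos, Fosb, Jun, Junb and Atf3 were lower on the blood array than on the spleen array in SatM, marker-negative cells and other Ly6C-negative cells. On the lung array of SatM all 5 were below the bone marrow array. In Msr1-dull Ceacam1-dull cells, Fos, Fosb and Junb were lower in lung than in bone marrow, but Jun was higher (11.7 in lung and 10.51 in bone marrow) and so was Atf3 (7.14 in lung and 6.39 in bone marrow). Fosb measured 10.2 in panel SatM of both spleen and bone marrow, 7.01 in those of lung and 4.68 in those of blood. In marker-negative cells it measured 11.1 in spleen, 10.9 in bone marrow and 3.401 in blood. Basophil markers averaged 6.30, 3.16 and 2.49 on these arrays, in that order, and their part in the differences was not tested. Jun in marker-negative cells was at 12.8 in spleen, 10.6 in bone marrow and 7.75 in blood, and Atf3 was at 11.7, 7.34 and 3.14 in the same order of tissues. The blood array of marker-negative cells was the lowest of the panel for Fos (9.50), Fosb, Jun, Junb (4.83) and Atf3, while its Jund (13.9) was like the others.

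Panel SatM of blood were below those of spleen for all 9 members, with blood minus spleen from -0.04 for Batf to -5.55 for Fosb. Fos was at 12.9 in blood and 14.2 in spleen, Jun at 10.4 and 12.9, Junb at 5.41 and 7.93, and Atf3 at 7.16 and 11.3. Each of these tissues has 1 array per cell type, so these differences have no replicate check. The other immediate-early genes had the same order, with a mean of 9.40 on the blood SatM array and 11.6 on the spleen SatM array. Over the 4 spleen arrays of the panel that mean was 10.9 to 11.6, over the 3 blood arrays 8.32 to 9.40, and over the 4 lung arrays 7.63 to 8.79.

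**Figure D5:**
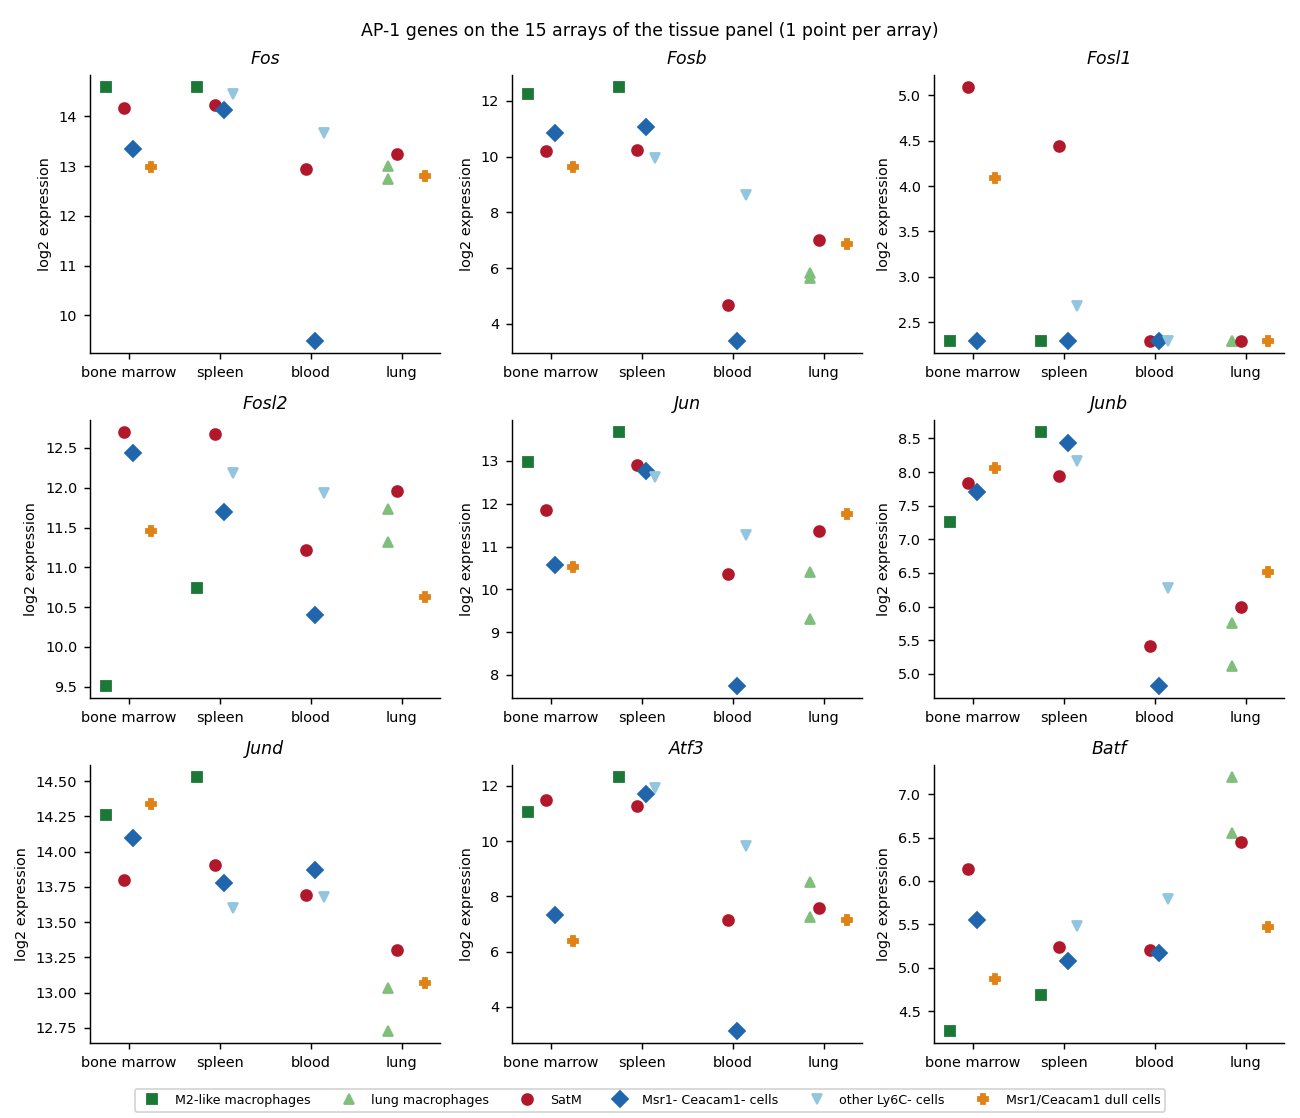
Log2 expression (vertical axes) of the 9 AP-1 genes on the 15 panel arrays by tissue, with 1 point per array and a symbol for each sorted population. Fosb is highest in M2-like macrophages (12.2 and 12.5) and drops below 9 in blood and lung, and Fosl2 is lowest on the bone marrow M2-like array (9.51).

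Lung minus bone marrow, with cell type in the model, called 0 of 9 members in limma, where 9.30% of all genes tested were called, and 4 members had an unadjusted p under 0.05. Those 4 were Fosb (-3.07, adjusted p = 0.124 by limma), Junb (-1.59, 0.0668), Jund (-0.85, 0.0527) and Fosl1, which was at the floor on all 4 lung arrays (adjusted p = 0.0544). The fitted difference of Jun was 0.21 (limma adjusted p = 0.907), but its second probe set gave -2.28 (limma adjusted p = 0.191). The probe sets of Jun thus differed in sign here, and neither was called. The arrays of lung lay below those of bone marrow without overlap for Fosb, Junb and Jund, but these arrays differ in cell type too. Only SatM and Msr1-dull Ceacam1-dull cells came from both tissues, with 1 array per tissue. For both cell types the lung array was below the bone marrow array in Fosb, Junb and Jund. Fosl1 was called without the bone marrow marker-negative array, and Jund without the lung SatM array (-1.27). Of 22 other immediate-early genes, 6 were lower in lung and none higher, among them Nr4a1 (-6.33) and Klf2 (-5.16). The lung arrays carry BAL in their titles, so tissue and the way the cells were obtained cannot be told apart.

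Between panel SatM and marker-negative cells, 0 of 9 members were called by limma, where 10.2% of all genes tested were, and only Fosl1 had an unadjusted p under 0.05. Fosl1 was at 5.09 and 4.44 in SatM of bone marrow and spleen and at the floor in blood and lung, and at the floor on all 3 arrays of marker-negative cells (adjusted p = 0.0595 by limma). It was called without the blood SatM array or the blood marker-negative array. Among the AP-1 target genes, Hmox1 (7.02) and Plaur (6.06) were higher in SatM than in marker-negative cells.

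M2-like macrophages differed from panel SatM in 1 of 9 members, where 8.31% of all genes tested were called, 2.92% lower. Fosl2 measured 10.7 in spleen and 9.51 in bone marrow M2-like macrophages, against 12.7 in SatM of both tissues, 11.2 in blood and 11.96 in lung (-2.49 ± 0.45, SE, limma adjusted p = 0.0155). The arrays did not overlap. The call was lost without the spleen SatM array (-2.45), the bone marrow SatM array (-2.45) or the bone marrow M2-like array (-1.60). That last array carried basophil markers at 7.18, eosinophil markers at 7.88 and neutrophil markers at 8.06, against 2.49, 3.85 and 3.65 on the spleen M2-like array, and their part in the Fosl2 result was not tested. Fosb was at 12.5 and 12.2 in M2-like macrophages, above every SatM array (4.68 to 10.2), and was not called by limma (2.33, adjusted p = 0.262). Fosl1, at the floor in M2-like macrophages (adjusted p = 0.0598), was called by limma without the blood SatM array.

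Between lung macrophages and panel SatM, 0 of 9 members were called by limma and none had an unadjusted p under 0.05, where 0.239% of all genes tested were called. Batf measured 6.55 and 7.19 in lung macrophages, above the SatM arrays (5.20 to 6.45), and Jund measured 13.03 and 12.73, below them (13.3 to 13.9). For both genes the nearest SatM array was that of lung (6.45 for Batf and 13.3 for Jund). The fitted differences were 0.45 ± 0.47 for Batf and -0.21 ± 0.26 for Jund (SE). The alveolar macrophage markers averaged 7.34 on one lung macrophage array and 11.3 on the other.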

How the data were processed

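The authors deposited 1 table of log2 expression values, 1 column per array and 1 row per probe set. The base was inferred from the range of 2.30 to 16.0, and the normalization and background method are not given in the sources used here. Array medians ran from 2.31 to 2.39. The number of arrays limits the precision. Of 45101 probe sets, 64 controls, 9160 without a symbol and 932 with several were left out. Gene names came from the platform annotation, updated through Entrez identifiers in the RefSeq gene table of GRCm38.p6 (34741 matched).

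Models were fitted with limma 3.58.1 in R 4.3.3 (lmFit, eBayes with trend). The first held 20 arrays, with cell type and a WT-titled term. The second held the 15 panel arrays, with cell type and tissue. A fitted difference can therefore depart from the difference of means, and every adjusted p comes from limma over all genes kept, those over the array's median on at least 2 arrays (12077 and 11734). Code was tested on simulated data, and tables used Python 3.11.15, pandas 2.3.3, numpy 2.4.6 and matplotlib 3.10.9. The members, lists and comparisons were chosen with earlier results of these data known. Besides the members, the text names up to 4 called genes of largest difference per list and comparison, and the 3 genes most correlated with each member. Alternatives were quantile normalization, no filter, the mean of probe sets, each probe set by itself, the compared groups alone, no trend, no fold threshold, no WT-titled or tissue term, a replicate block, the panel's marrow SatM array added and each array left out. One missing value was left missing.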

Additional observations from a re-analysis of the deposited data

Results flagged for a closer look

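The step from SMP to SatM differed from the step from cMoP to inflammatory monocytes, by a direct test of the difference in limma, in Fosb (-2.66, adjusted p = 0.00778), Junb (-4.36, adjusted p = 0.000453) and Atf3 (4.58, adjusted p = 0.0031). The difference between SMP and cMoP itself differed between the WT-titled and the numbered set in Fos (-1.13, limma adjusted p = 0.0215). In the 3 groups of 4 arrays (SMP, cMoP and the panel SatM), no array stood apart from its group in any of the 9 members.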

How the results depend on the processing

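Over 34 called member results and 542 alternative values, none reversed, 466 kept direction and call, 76 kept direction without a call, and 12 of the 34 were called in all. The number of members called changed by over 1.5 times as follows. With the compared groups alone it was 1 (0 as reported) for SatM minus inflammatory monocytes, 0 (2) for inflammatory monocytes minus cMoP, 0 (1) for SMP minus basophils, 0 (1) for the difference between array sets in SMP minus cMoP, and 0 (1) for M2-like macrophages minus SatM, which was also 0 with no tissue term. For inflammatory monocytes minus cMoP it was 1 with no filter, the mean of probe sets, each probe set by itself, no trend or no WT-titled term. For SMP minus cMoP it was 4 within the numbered and 2 within the WT-titled set, against 7. For lung minus bone marrow it was 1 under quantile normalization, against 0. It changed by 1 member to 6 for SMP minus cMoP (quantile normalization, no filter, mean of probe sets, compared groups alone, replicate block), 5 for SatM minus SMP (mean of probe sets, no WT-titled term), 3 for the 2 steps compared (replicate block), 5 for basophils minus neutrophils (compared groups alone, replicate block), 4 for eosinophils minus neutrophils (no filter, compared groups alone) and 2 for basophils minus eosinophils (compared groups alone). The causes were not tested, though fits of fewer arrays hold fewer degrees of freedom.

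With the replicate block it was 0 for SatM minus SMP (4 as reported), 0 for inflammatory monocytes minus cMoP (2), 3 for eosinophils minus neutrophils (5), 0 for basophils minus eosinophils (3), 0 for SMP minus basophils (1) and 0 for the difference between array sets (1). The labels do not say what a number marks, and with 2 numbers a set the deviations of same-numbered arrays correlated at r = -0.045 to 0.233, so a pairing was not established.

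With each array left out in turn, members called ranged from 0 to 2 for inflammatory monocytes minus cMoP, M2-like macrophages minus SatM and the difference between array sets, from 6 to 7 for SMP minus cMoP, from 3 to 5 for the 2 steps compared, from 1 to 2 for basophils minus eosinophils, and from 0 to 1 for SatM minus marker-negative cells and lung minus bone marrow.

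Over all genes, the count called ran over the alternatives from 0 to 2022 for SatM minus inflammatory monocytes (1128 as reported), 741 to 7129 for SMP minus cMoP (4285), 0 to 5307 for SatM minus SMP (3234), 1014 to 2716 for inflammatory monocytes minus cMoP (1795), 1836 to 4241 for the 2 steps compared (2688), 3478 to 7416 for basophils minus neutrophils (4519), 3572 to 8059 for eosinophils minus neutrophils (4895), 0 to 3976 for basophils minus eosinophils (2493), 0 to 547 for SMP minus basophils (344), 39 to 2683 for WT-titled minus numbered (1501), 0 to 762 for the difference between array sets (211), 0 to 1817 for SatM minus marker-negative cells (1200), 0 to 1489 for M2-like macrophages minus SatM (975), 0 to 1276 for lung macrophages minus SatM (28) and 16 to 2201 for lung minus bone marrow (1091). Groups of 1 to 4 arrays and the floor, where 27 of 35 Fosl1 values lie, limit what these data can show.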

Other observations

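The genes most like each member over the 35 arrays were taken by Pearson r among 12869 genes. For Fos they were Dusp1, a MAP kinase phosphatase gene (0.869), Zfp36, which encodes an mRNA decay factor (0.82), and Rgs2 (0.805). For Fosb they were Jun (0.898), Tnfaip3 (0.853) and Ppp1r15a (0.832), and for Jun they were Fosb, Ppp1r15a (0.825) and Tnfaip3 (0.804). Jund was most like Nfkbia, the gene of an NF-kappaB inhibitor (0.919), Cpeb2 (0.871) and Pnrc1 (0.868). Junb was most like Stk17b (0.831), Cpeb2 (0.792) and Pnrc1 (0.791), so Junb and Jund shared 2 of their 3.

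Fosl1 was most like the cytokine gene Il13 (0.867), Otos (0.863) and Gzmc (0.862), and its r rests on the 8 arrays where it was above the floor. Fosl2 was most like Ndel1 (0.817), Stk40 (0.796) and Kdm7a (0.775). Atf3 was most like Ptprj (0.834), Gdap10 (0.806) and Ifi207 (0.802), and Batf most like Arpc4 (0.788), Fuca2 (0.751) and Tigar (0.747). The points share cell types, array sets and the authors' normalization, so these values describe these arrays only.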
